A study of Mus musculus with 8 samples.

Results

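The genes described here are 10 markers of liver lobule zonation out of 63329 gene names on the arrays. The 7 pericentral markers were Glul, Oat, Slc1a2, Rhbg, Tbx3, Axin2 and Lect2, and the 3 periportal markers were Hal, Gls2 and Sds. They were chosen by gene name from their known place in the lobule, at a time when earlier results of these data were known.

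Blood flows through the liver lobule from the portal triad to the central vein, and hepatocytes along this path divide the metabolic work. Hepatocytes around the central vein receive Wnt ligands and R-spondin from the endothelium of that vein, and the resulting beta-catenin activity maintains glutamine synthetase and other genes that capture ammonia as glutamine. Periportal hepatocytes instead release nitrogen from amino acids for the urea cycle, and the enzymes that break down histidine, glutamine and serine are found there.

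The 8 samples were mouse cells of 4 groups, each hybridised to 2 Agilent arrays with 1 dye. Lineage-negative bone marrow cells (Lin- BM cells, arrays L3 and L4) were the control in the study's array legends. They were obtained by magnetic depletion from female C57Bl6/J-Tg(UBCGFP) 30Scha/J mice, which express eGFP in most tissues under the ubiquitin C promoter. BM-derived hepatocytes were sorted by eGFP from collagenase-perfused livers of male hemophilia A mice, which carry the F8tm1Kaz mutation of the factor VIII gene, after an acetaminophen injury and transplantation of such Lin- cells, with donors and recipients 6 to 8 weeks old at the start. They were taken 1 month later for arrays B1 and B2, and 5 months later for arrays G1 and G3. Primary hepatocytes (H2 and H4) were a further group, and their strain, age and treatment are not given in the sources used here. By the study's legend the arrays come from 2 experiments, with the cells of 3 mice pooled in each, so the p-values measure the spread between these pools. Sorting on eGFP takes every eGFP-bearing cell of the suspension, and a low-speed spin was the step that separated hepatocytes from other liver cells. The study also checked the sorted cells as hepatocytes by staining for albumin. One slide held the Lin- and 1-month arrays, and a slide of a different design held the primary and 5-month arrays. Levels are given as log2 of the background-subtracted signal minus the 75th percentile of the array, and a probe is called well above background where the scanner software marked it so. Genes were compared with limma and called at an adjusted p under 0.05 (Benjamini-Hochberg over all genes tested) with a log2 change beyond 0.6. With 2 arrays against 2, an exact two-sided permutation test cannot go below 0.33.

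Several arrays stood apart or differed from what their labels imply. The share of spots well above background ran from 47.7% to 58.6%, and the upper quartile of the signal was lowest in B1 (75.5) and B2 (89.5) and reached 193 in L3. Alb did not exceed background clearly on the Lin- arrays and was at 9.95 and 9.81 at 1 month, and on the other slide it lay between 10.80 and 11.22. Ptprc, which encodes CD45, was at 6.16 and 4.98 in Lin- BM cells and at -2.93 and -0.75 at 1 month. Donors were female, yet Xist was not well above background on any of the 6 hepatocyte arrays (at most -5.28), whereas it was at 3.81 and 2.74 in Lin- BM cells. The Y-linked Eif2s3y was well above background on all 8 arrays. The groups are therefore named by their labels, and the origin of the sorted cells was not tested here. By in situ hybridisation for the X and Y chromosomes, the study reported that most sorted donor-derived cells lacked a Y chromosome. It counted a minority as fusion hybrids, with fewer at the later time. In addition, B1 differed from B2 in immediate early and heat shock genes, which cell dissociation induces. All 8 such genes were higher in B1, with a summed signal of 497 against 39.6 in units of the array's 75th percentile. Kupffer cell markers went the other way, at 9.78 in B1 and 42.0 in B2. G1 differed from G3 in neutrophil genes, with S100a9 at 5.66 against 0.15 and S100a8 at 2.11 against -3.91. Camp was also higher in G1 (3.17 against 1.27), while Elane was not (3.42 against 3.56).

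At 1 month most markers of both zones were higher than in Lin- BM cells, with Axin2 as the exception. Of the 10 markers 9 were called higher and 0 lower, against 28.8% of all 28522 genes called higher and 26.5% called lower on this slide. The share of calls that were higher was 52.1%, and 62.7% with normexp background correction and 71.9% with no filter on dim probes. In the plot of levels by slide, the 1-month arrays lay above both Lin- arrays for every marker. The share of all genes for which this held was not counted, so no result about the markers is drawn from it. General hepatocyte markers did the same, with 7 of 7 called higher (median change 11.38), so the rise was not particular to zonated genes. In bulk RNA, fewer cells of one type and less RNA per cell cannot be told apart.

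**Figure D1:**
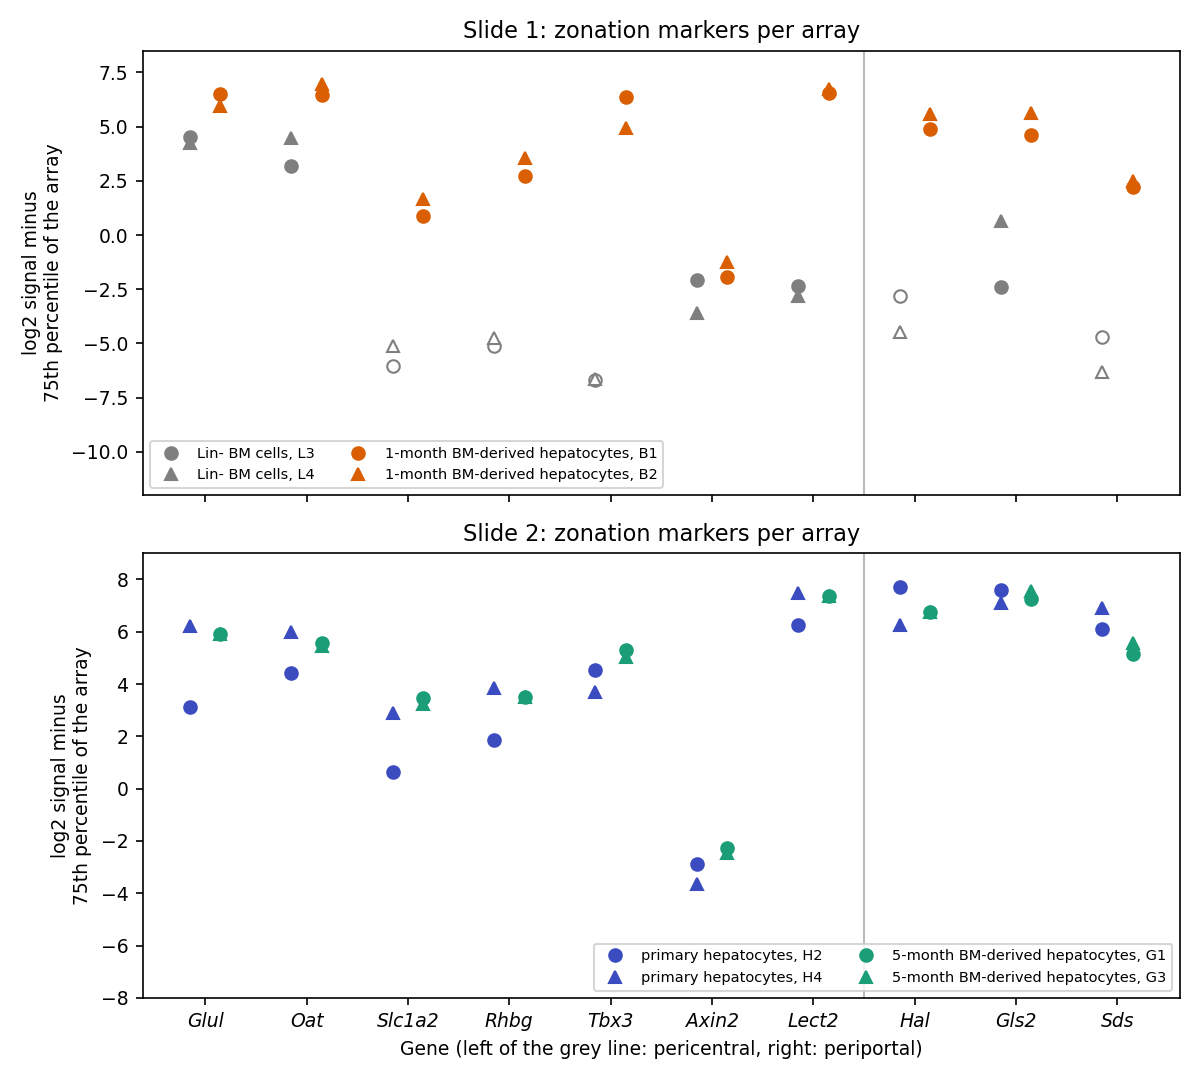
Levels of the 10 markers on each array, as log2 signal minus the 75th percentile of the array (y axis), for slide 1 (top) and slide 2 (bottom), with pericentral genes left and periportal genes right of the grey line. Open symbols mark groups in which fewer than 2 arrays were well above background. On slide 1 both 1-month arrays lie above both Lin- arrays for all 10 genes, and the share of all genes for which this holds was not counted. On slide 2 the H2 circle lies below the other arrays for Glul, Oat, Slc1a2, Rhbg and Lect2.

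Among the genes of ammonia capture, Glul, which encodes glutamine synthetase, was at 6.51 and 5.93 at 1 month and at 4.53 and 4.25 in Lin- BM cells. It was thus clearly measured in the marrow cells too, and the rise was 1.83 on the log2 scale (SE 0.32, adjusted p = 0.00891). A second, dimmer probe of Glul gave a difference of 2.12. Oat, the ornithine aminotransferase that feeds glutamate to the same pericentral cells, was at 6.45 and 6.96 against 3.18 and 4.49. Its rise of 2.87 (SE 0.52, adjusted p = 0.00939) was no longer called without B2 (2.61, adjusted p = 0.0541). The glutamate transporter Slc1a2 was at 0.88 and 1.67 at 1 month on the probe that stood for it. That probe was not well above background on either Lin- array, which makes it at least 52.0-fold higher (adjusted p = 0.00061). Slc1a2 had 4 probes on this slide, with differences of 2.07 to 7.75, all in the same direction. The probe with the difference of 2.07 was well above background on both Lin- arrays (-3.19 and -3.46), so the bound does not hold for it. Rhbg, an ammonium transporter of the Rhesus family, was at 2.71 and 3.55 and likewise at background on both Lin- arrays, so at least 188-fold higher (adjusted p = 0.000264).

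The pericentral regulators and secreted factors were less uniform. Tbx3, a T-box transcription factor downstream of beta-catenin, was at 6.37 and 4.94 at 1 month. With no Lin- array well above background this was at least 1081-fold higher (adjusted p = 0.000193). Lect2, a secreted hepatocyte protein also under beta-catenin control, was at 6.55 and 6.74 against -2.33 and -2.83, a rise of 9.23 (SE 0.30, adjusted p = 9.82e-05). Axin2, the scaffold protein that is a general feedback target of Wnt signalling, was the marker that was not called. Its level was -1.94 and -1.24 at 1 month and -2.08 and -3.59 in Lin- BM cells, so the groups did not overlap but B1 and L3 lay close to each other. The difference was 1.24 (SE 0.59, adjusted p = 0.13), and it was called without L3 (2.0, adjusted p = 0.0353) and with normexp background correction (0.77, adjusted p = 0.032).

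The periportal enzymes were all called higher at 1 month. Hal, the histidine ammonia-lyase that starts histidine breakdown, was at 4.90 and 5.57 against -2.80 and -4.47, where 1 of the Lin- arrays was well above background. The difference was 8.87 (SE 0.63, adjusted p = 0.000703). Gls2, the liver glutaminase, was at 4.62 and 5.62 at 1 month, while the Lin- arrays themselves differed, with -2.37 in L3 and 0.67 in L4. Its rise of 5.97 had a wide error (SE 1.05, adjusted p = 0.00883) and was not called without B2 (5.47, adjusted p = 0.051). Sds, the serine dehydratase that yields pyruvate and ammonia, was at 2.23 and 2.49 at 1 month and at background on both Lin- arrays, so at least 110-fold higher (adjusted p = 0.000821).

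Sequences upstream of the start were available for 6 of the 10 markers from RefSeq, namely Glul, Oat, Slc1a2, Axin2, Lect2 and Hal. They were searched on both strands for the letters CTTTGAA and CTTTGAT, which the TCF/LEF partners of beta-catenin bind. In 250 bases before the start, 3 of the 6 held a match, and 7.48% of all 32851 promoters held one. The windows of Glul, Lect2 and Hal are shown because these genes span the behaviours above, namely a gene already measured in Lin- BM cells, a pericentral gene with a match and a periportal gene with a match. Capitals mark the match. The places are on GRCm38.p6, chr1:153899679-153899928 on the plus strand for Glul, chr13:56548539-56548788 on the minus strand for Lect2 and chr10:93488518-93488767 on the plus strand for Hal.
Glul: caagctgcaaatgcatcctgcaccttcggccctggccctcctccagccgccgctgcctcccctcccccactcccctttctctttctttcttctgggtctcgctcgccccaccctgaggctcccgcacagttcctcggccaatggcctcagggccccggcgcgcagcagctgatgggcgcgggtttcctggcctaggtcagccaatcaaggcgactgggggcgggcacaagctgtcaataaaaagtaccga
Lect2: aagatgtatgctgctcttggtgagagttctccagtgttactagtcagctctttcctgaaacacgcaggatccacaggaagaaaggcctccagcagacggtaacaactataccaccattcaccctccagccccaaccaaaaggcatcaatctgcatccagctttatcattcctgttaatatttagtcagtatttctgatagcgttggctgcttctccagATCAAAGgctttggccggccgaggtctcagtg
Hal: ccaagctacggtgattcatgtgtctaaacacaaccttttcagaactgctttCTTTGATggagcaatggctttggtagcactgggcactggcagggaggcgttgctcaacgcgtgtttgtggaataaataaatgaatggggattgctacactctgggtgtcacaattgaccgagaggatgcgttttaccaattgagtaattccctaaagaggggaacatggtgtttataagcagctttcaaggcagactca
The match began 32 bases before the start of Lect2 on the opposite strand and 199 bases before that of Hal on the strand printed. The match of Slc1a2 lay 207 bases before a start inside its gene, and the windows of Glul, Oat and Axin2 held none. The start used for Axin2 also lay inside its gene, and that of Lect2 lay just inside the gene's outer edge at chr13:56548559. A match describes the letters of the window and says nothing of binding.

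Other zonated genes and pathway partners moved in the same comparison. All 15 further pericentral genes were called higher at 1 month (median 11.13, against 0.07 for all genes), among them Gulo, an enzyme of vitamin C synthesis (11.13, SE 0.52, adjusted p = 0.000248), and Nr1i3, the nuclear receptor CAR (5.88, SE 0.39, adjusted p = 0.000609). Cyp2e1 and Cyp1a2, both pericentral cytochromes P450, were at background on the Lin- arrays and at least 5357-fold and 481-fold higher. Of 18 further periportal genes 14 were called higher and 1 lower, where 28.8% and 26.5% of all genes were. Pck1 and G6pc, which make glucose, rose by 12.47 (SE 0.27) and 10.29 (SE 0.29), and Cyp2f2 was at least 1963-fold higher. The 1 lower gene was Sdsl, a relative of Sds, with 1.34 and 1.84 at 1 month against 3.74 and 4.52 (-2.54, adjusted p = 0.00592). It was singled out after its values were seen.

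Genes of the Wnt pathway went both ways. Of 10 further targets 6 were called higher and 2 lower at 1 month, where 28.8% of all genes were called higher and 26.5% lower. The R-spondin receptor Lgr5 was at 1.38 and 0.37 against -3.42 and -2.65, a rise of 3.91 (SE 0.48, adjusted p = 0.00312), and the feedback inhibitor Nkd1 rose by 3.79 (SE 0.31, adjusted p = 0.00104). The transcription factor Tcf7, which lymphoid progenitors express, was lower by contrast, with -1.28 and -1.67 against 4.08 and 1.49 (-4.26, adjusted p = 0.0136). Of 15 ligands, receptors and transducers 8 were called higher and 2 lower, beside the same shares of all genes. The receptors Fzd4 and Fzd8 rose by 4.74 (SE 0.34) and 3.61 (SE 0.29). Wnt9b, a ligand of central vein endothelium, was at -2.16 and -1.49 against -4.40 and -3.24 (2.0, adjusted p = 0.0239), with 1 of the Lin- arrays well above background. Rspo3, the R-spondin of the same endothelium, did not pass the filter on dim probes on this slide. Markers of sinusoidal endothelium were also higher at 1 month (6 of 7 called higher, summed signal 63.0 and 70.6 against 4.44 and 4.59), and their part in the Wnt ligand values was not tested.

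Enzymes that work beside the markers mostly rose with them. Of 11 genes of glutamine, glutamate and ammonia handling 8 were called higher and 2 lower, where 28.8% and 26.5% of all genes were. The glutamine transporter Slc38a3 was at 6.64 and 6.35 against -4.10 and -4.20 (10.64, SE 0.27, adjusted p = 6.4e-05). Of 10 genes of histidine and serine metabolism 7 were called higher and 3 lower, beside the same shares of all genes. Amdhd1, which acts after Hal and urocanase in histidine breakdown, rose by 7.95 (SE 0.42, adjusted p = 0.000343). The histidine decarboxylase Hdc, which makes histamine in mast cells and basophils, was at -1.72 and -1.24 against 3.66 and 2.71 and was lower (-4.66, SE 0.42, adjusted p = 0.00139).

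At 5 months the markers were compared with primary hepatocytes on the other slide, and 0 of the 10 were called, where 0.552% of 19929 genes were called in either direction. At an unadjusted p under 0.05 there were 3 such markers, Tbx3, Axin2 and Sds, beside 2817 of all 19929 genes. The methods' t-test gave 0 of 10 markers called after Benjamini-Hochberg. The count rested on both primary hepatocyte arrays. Without H2, Tbx3, Axin2 and Sds were called, and without H4, Glul, Slc1a2 and Rhbg. All 7 pericentral means were higher at 5 months, with a median difference of 0.89 against 0.04 for all genes. This rested on H2, since without it Glul (-0.32), Oat (-0.50), Rhbg (-0.36) and Lect2 (-0.13) were lower at 5 months.

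Glul was at 5.90 on both 5-month arrays, between 3.14 in H2 and 6.22 in H4. The difference of 1.22 (SE 1.06, adjusted p = 0.661) became 2.76 without H4 and turned to -0.32 without H2. Oat was at 5.57 and 5.44 against 4.42 and 6.0, and Rhbg at 3.49 and 3.51 against 1.86 and 3.86. For these 3 genes the 5-month arrays lay inside the range of the primary hepatocyte arrays. Lect2 was at 7.37 and 7.36 against 6.26 and 7.50 and overlapped in the same way. Slc1a2 was at 3.47 and 3.25 at 5 months, above H2 (0.62) and H4 (2.89), with a difference of 1.61 (SE 0.79, adjusted p = 0.46). A second Slc1a2 probe gave 1.51.

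Tbx3 and Axin2 stood above both primary hepatocyte arrays at 5 months. Tbx3 was at 5.31 and 5.02 against 4.52 and 3.71, a difference of 1.05 (SE 0.35, adjusted p = 0.319). Axin2 was at -2.28 and -2.48 against -2.89 and -3.65, a difference of 0.89 (SE 0.33, adjusted p = 0.352). Neither passed the test. Lgr5 was at 1.19 and 1.11 against -1.02 and 0.55 (1.39, adjusted p = 0.382), and Rspo3 was at 0.13 and 0.07 against -0.89 and 0.03 (0.52, adjusted p = 0.587).

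Of the periportal enzymes, Hal was at 6.75 and 6.76 at 5 months against 7.73 and 6.25, and Gls2 at 7.26 and 7.56 against 7.59 and 7.12. Both overlapped with primary hepatocytes, with differences of -0.23 (SE 0.53) and 0.06 (SE 0.27). Sds was the marker that lay below both primary arrays, at 5.15 and 5.57 against 6.12 and 6.93. Its difference was -1.16 (SE 0.36, adjusted p = 0.3). Second, dimmer probes of Hal and Sds differed by -0.29 and -0.47, the latter well above background on 1 primary hepatocyte array only. None of 14 further pericentral and 18 further periportal genes was called. Cyp2e1 differed by -0.10 (SE 0.24), Cyp1a2 by 0.81 (SE 0.35) and Cyp2f2 by -0.02 (SE 0.22), none of them called. Among the lists of other cell types, Kupffer cell markers had a summed signal of 126 and 124 at 5 months against 32.5 in H2 and 69.5 in H4, and all 8 had higher means at 5 months with 0 called. Of the 8 immediate early and heat shock genes, 6 had an unadjusted p under 0.05 (median difference 1.49), as did 2817 of all 19929 genes. Of the 8 genes 1 was called, Fos, at 0.37 and 0.45 against -2.95 and -2.48 (3.13, adjusted p = 0.0366). The part of either list in the marker differences was not tested.

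The primary hepatocyte arrays differed from each other in several markers, which is described here after the values were seen and without a test, since it sets 1 array against 1. Of the 7 pericentral markers 5 were lower in H2 than in H4 by more than 1 on the log2 scale, as were 8.59% of all genes. The difference of H2 minus H4 was -3.08 for Glul, and 0.366% of genes differed by more in that direction. It was -2.27 for Slc1a2, -2.0 for Rhbg, -1.58 for Oat and -1.23 for Lect2. Tbx3 and Axin2 ran the other way, being higher in H2 by 0.82 and 0.76. Of the periportal markers, Hal was higher in H2 by 1.47 and Gls2 by 0.48, and Sds was lower (-0.81).

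In the wider lists, of 14 further pericentral genes 13 were lower in H2 (median -0.60), where 53.5% of all genes were lower (median -0.04). Of 8 further Wnt targets 7 were lower (median -0.72), with Lgr5 at -1.57. Of 18 further periportal genes 11 were higher in H2 (median 0.32), and 7 were lower. Mfsd2a, a lipid transporter, had a larger gap than Glul, at 3.56 in H2 and 6.76 in H4 (-3.20), and the gluconeogenic Pck1 was also lower (-2.07), both chosen after their values were seen. Kupffer cell markers were lower in H2 in 8 of 8 cases (median -1.15) and central vein endothelium markers in 4 of 4 (median -0.76), while 2 of 7 sinusoidal endothelium markers were lower (median 0.06). The part of these cells in the marker values was not tested. The 5-month arrays showed no such gap, with 0 of 10 markers apart by more than 1 and a median difference of 0.01. At 1 month, 2 of 10 markers were apart by more than 1, namely Tbx3, higher in B1 by 1.44, and Gls2, lower in B1 (-1.0).

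**Figure D2:**
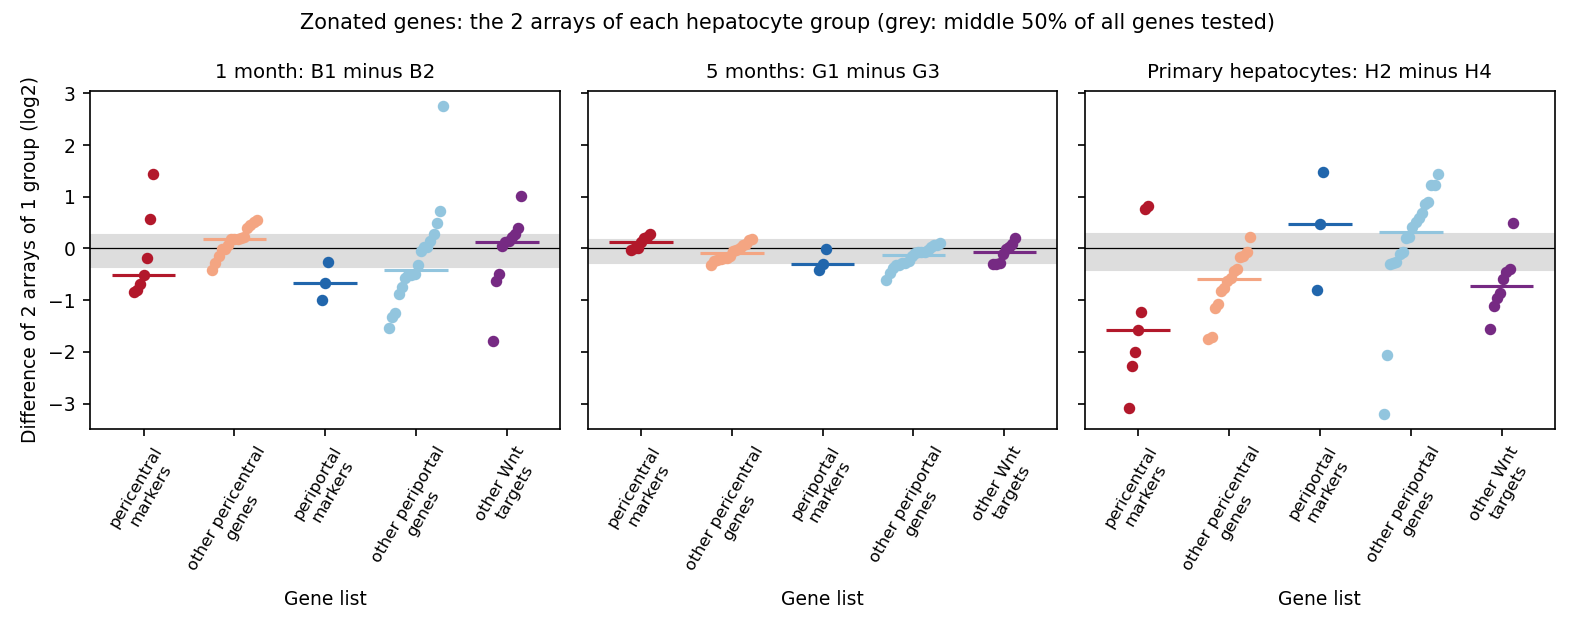
Difference in log2 level between the 2 arrays of each hepatocyte group (y axis) for each gene of 5 lists (x axis), with the median of a list as a line and the middle 50% of all genes tested in grey. The pericentral markers reach -3.08 in H2 minus H4 (median -1.58), whereas the 5-month arrays differ by less than 1 for every gene shown.

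For the comparison of the time points and of 1-month with primary hepatocytes, slide, array design and scan differ together with the group, and their effects cannot be told apart. Only probes of identical sequence were used, with levels set to the 75th percentile of those 13991 probes. This left 5 markers, Oat and Rhbg for the pericentral and Hal, Gls2 and Sds for the periportal zone, and 9214 genes in all. Both comparisons use the 1-month arrays. The balance of calls over all genes depended on the scaling. Of the calls between 1 month and primary hepatocytes 69.7% were higher at 1 month, against 49.5% with the authors' values, 50% with the percentile over all probes, 52.8% with quantile normalization and 84.8% with no filter. Of those between 5 months and 1 month 34% were higher at 5 months, against 53.2%, 52.6% and 47% under the first 3 of these. The directions of the 5 markers did not turn under any of these settings. Sds was the 1 marker called in each.

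**Figure D3:**
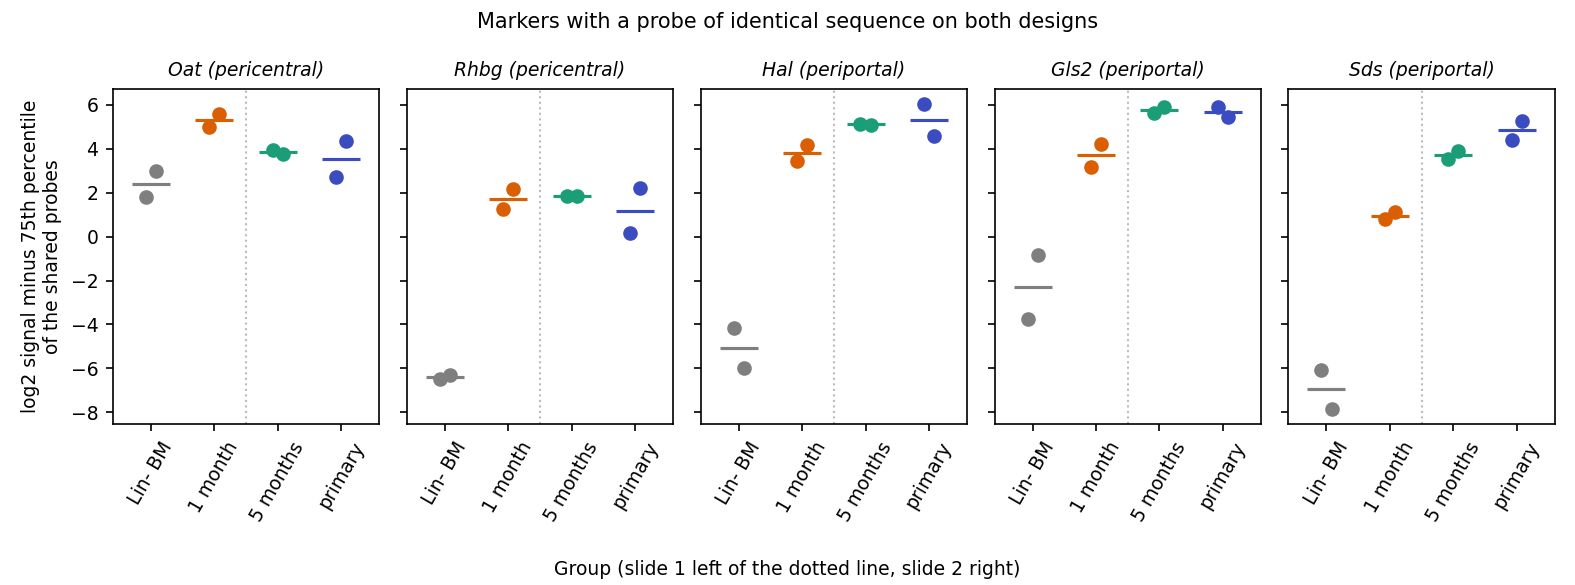
Levels of the 5 markers with a probe of identical sequence on both array designs, as log2 signal minus the 75th percentile of the shared probes (y axis), for the 2 arrays of each group (points) and their mean (lines). Groups left of the dotted line lay on slide 1 and groups right of it on slide 2. The 3 periportal genes lie lower at 1 month than at 5 months and in primary hepatocytes.

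Sds was at 0.78 and 1.1 at 1 month, at 3.53 and 3.9 at 5 months and at 4.41 and 5.26 in primary hepatocytes, with -6.05 and -7.84 in Lin- BM cells. No groups overlapped in this order. The 1-month level was 14.8-fold lower than that of primary hepatocytes, a log2 change of -3.89 (SE 0.60, adjusted p = 0.00939), where 5.05% of all genes were called lower and 11.6% higher. From 1 to 5 months Sds rose by 2.77 (SE 0.60, adjusted p = 0.0268), where 5.73% of all genes were called higher and 11.1% lower. The first call held with each array left out, but the second was lost with any of the 4 arrays left out (2.59 to 2.96, adjusted p = 0.0947 to 0.135). Of the neighbours in the order, 5 months and primary hepatocytes did not differ past the test, as given above for their own slide.

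Gls2 and Hal were likewise lowest at 1 month among the hepatocyte groups, without passing the test. Gls2 was at 3.17 and 4.23 at 1 month, 5.64 and 5.89 at 5 months and 5.89 and 5.44 in primary hepatocytes. Its 1-month difference from primary hepatocytes was -1.96 (SE 0.88, adjusted p = 0.18). Hal was at 3.45 and 4.18, 5.13 and 5.09, and 6.02 and 4.58 in the same groups, and the 1-month difference was -1.49 (SE 0.70, adjusted p = 0.195). Neither gene overlapped between 1 month and the slide 2 groups. With normexp background correction both were called in both comparisons, with adjusted p = 0.0297 (Hal) and 0.0332 (Gls2) against primary hepatocytes and 0.0414 and 0.0269 between the time points.

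The pericentral pair did not share this order. Oat was highest at 1 month, at 5.00 and 5.57 against 3.95 and 3.77 at 5 months and 2.72 and 4.33 in primary hepatocytes. The excess over primary hepatocytes was 1.76 (SE 0.61, adjusted p = 0.0991), and it was called without H4 (2.57, adjusted p = 0.0397). The difference between 5 months and 1 month was -1.43 (SE 0.61, adjusted p = 0.15). Rhbg was at 1.26 and 2.16 at 1 month, 1.87 and 1.84 at 5 months and 0.16 and 2.19 in primary hepatocytes. All 3 hepatocyte groups overlapped for Rhbg, with differences of 0.54 (SE 0.65) and 0.14 (SE 0.65).

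The further zonated genes divided by zone in these comparisons. Of 13 further periportal genes 7 were called lower at 1 month than in primary hepatocytes and 0 higher. Of all genes 5.05% were called lower and 11.6% higher. All 13 changes were below 0, as were 3770 of all 9214, and the median of the 13 was -1.27 (all genes 0.17). Aldh1b1, a mitochondrial aldehyde dehydrogenase, was at -1.92 and -1.35 at 1 month against 3.92 and 2.52 (-4.86, SE 0.46, adjusted p = 0.00313). Pigr, the polymeric immunoglobulin receptor, changed by -2.78 (SE 0.28, adjusted p = 0.00355) on a shared probe that is not its brightest on slide 2, Etnppl, a phospholyase of phosphoethanolamine, by -2.55 (SE 0.52, adjusted p = 0.022) and Cyp2f2 by -2.50 (SE 0.50, adjusted p = 0.021). Of 11 further pericentral genes 0 were called, with 7 changes above and 4 below 0 (median 0.14), and Cyp1a2 was at -0.52 (SE 0.31). At an unadjusted p under 0.05 there were 2 such pericentral genes, beside 2976 of all 9214 genes. Normexp background correction called 2 of the pericentral genes higher and 2 lower. No test of the difference between the zones was made.

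Between 1 and 5 months the same 1-month arrays enter with the opposite sign. Of the 13 periportal genes 7 were called higher at 5 months and 0 lower. Of all genes 5.73% were called higher and 11.1% lower. All 13 changes were above 0, as were 3956 of all 9214, and the median of the 13 was 1.60 (all genes -0.14). Aldh1b1 rose by 3.59 (SE 0.46, adjusted p = 0.00622), Cyp2f2 by 2.52 (SE 0.50, adjusted p = 0.0214) and Pigr by 2.16 (SE 0.28, adjusted p = 0.00649). Of the 11 pericentral genes 1 was called, Cyp1a2, which was at 5.56 and 5.76 at 5 months against 4.35 and 4.24 (1.37, SE 0.31, adjusted p = 0.0324). The 7 periportal genes called lower at 1 month became 4 without B1, 4 without B2, 3 without H2 and 5 without H4. The 7 called higher at 5 months became 2 without B1, 4 without B2, 1 without G1 and 2 without G3. Under the methods' t-test with Benjamini-Hochberg adjustment 0 were called in either comparison, and without adjustment 5 and 4.

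Other values moved with the 1-month arrays. Of 4 general hepatocyte markers with a shared probe 0 were called lower at 1 month than in primary hepatocytes, but all 4 changes were below 0 (median -0.71). From 1 to 5 months all 4 changes were above 0 (median 0.70), and 2 were called higher, where 5.73% of all genes were. These directions were thus not confined to periportal genes. Alb, which is in that list and in the periportal one, was at -0.78 for 1 month (adjusted p = 0.0547) and rose by 1.04 to 5 months (adjusted p = 0.0249). The 4 immediate early genes with a shared probe were Atf3, Egr1, Fos and Ier3. Their summed signal was 62.0 in B1 and 0.842 in B2, against 3.52 and 4.57 at 5 months and 0.712 and 0.604 in primary hepatocytes. Kupffer cell markers were at 3.18 and 13.9 at 1 month, 24.4 and 21.7 at 5 months and 4.34 and 9.71 in primary hepatocytes. The part of these values in the periportal result was not tested, nor was that of the dimmer 1-month arrays. The Sds change was -3.73 without B1 and -4.05 without B2.

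**Figure D4:**
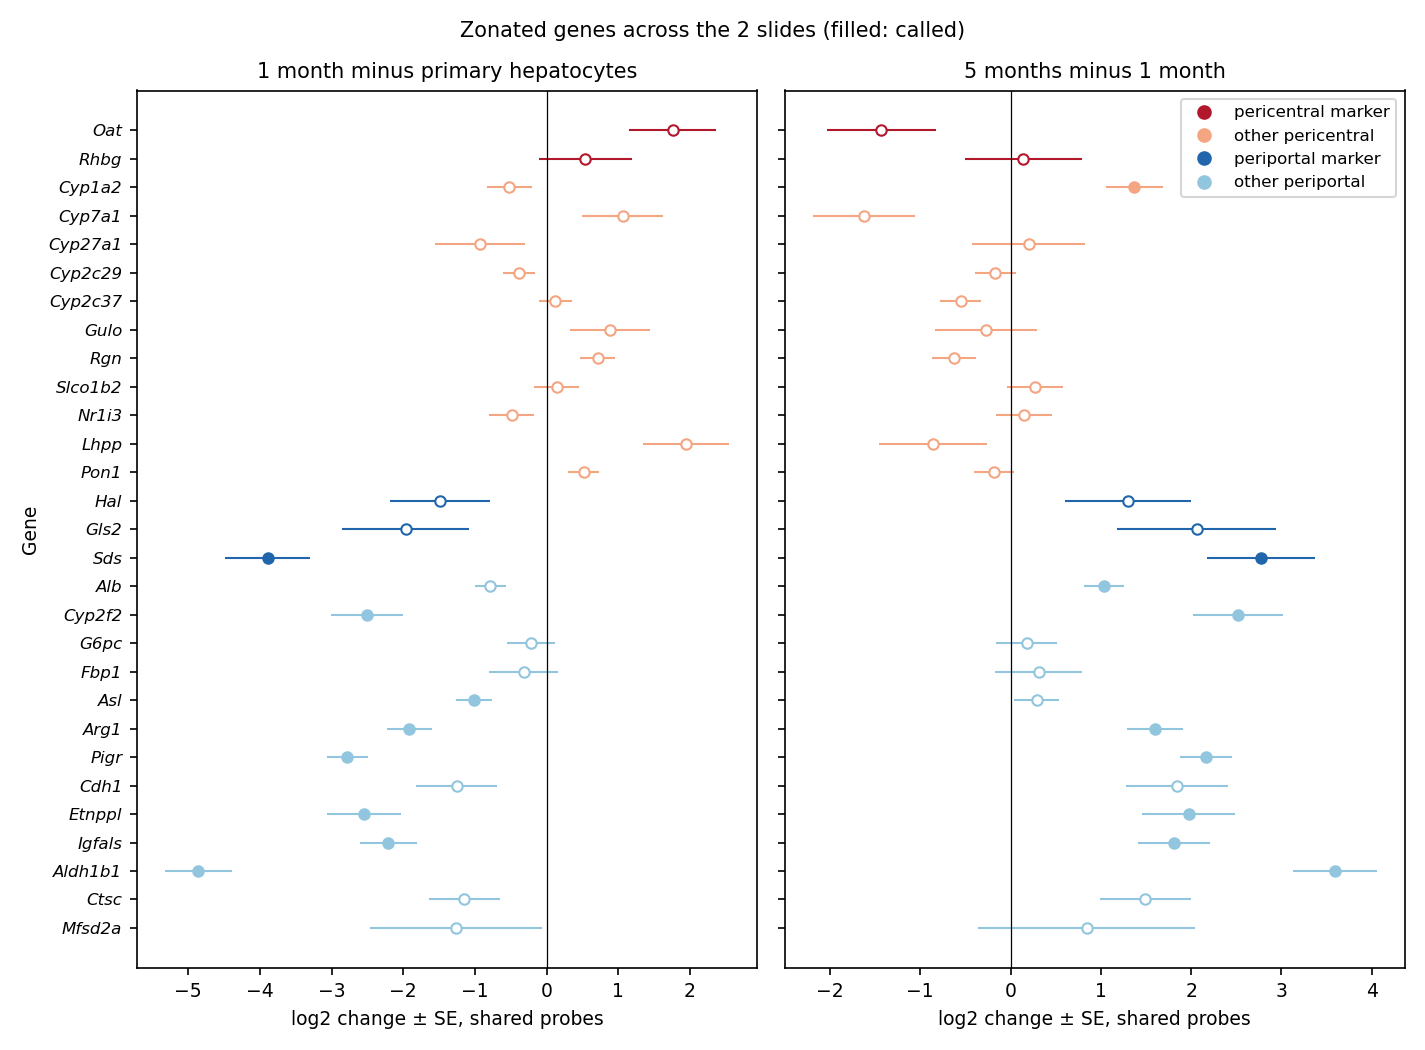
Log2 change with its standard error (x axis) of zonated genes with a shared probe (y axis), for 1 month minus primary hepatocytes (left) and 5 months minus 1 month (right), which share the 1-month arrays. Filled points were called. All 16 periportal genes lie below 0 on the left and above 0 on the right, while the 13 pericentral genes fall on both sides. Of all 9214 genes 3770 lie below 0 in the comparison on the left and 3956 above 0 in that on the right.

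Against primary hepatocytes at 1 month, 3 of 9 genes of glutamine and ammonia handling were called higher and 1 lower, where 11.6% and 5.05% of all genes were. One of the higher calls, Rhag, was not well above background in either group and compares background with background. Slc38a3, the one lower, was at 5.19 and 4.96 against 5.85 and 6.54 (-1.12, SE 0.30, adjusted p = 0.0499), and Pycr1, an enzyme of proline synthesis, was higher by 2.10 (SE 0.39, adjusted p = 0.0165). Of 8 genes of histidine and serine metabolism 2 were called lower. Uroc1, the urocanase that acts directly after Hal, was at 3.85 and 3.91 against 5.16 and 4.99 (-1.19, SE 0.22, adjusted p = 0.0155) and rose by 1.51 (SE 0.22, adjusted p = 0.00815) from 1 to 5 months. Of 8 Wnt ligands, receptors and transducers 1 was called higher and 2 lower. The lower calls were Apc and Gsk3b, whose shared probes differed from their brighter probes. For Apc the mean was -2.41 at 1 month and -4.28 in Lin- BM cells on the shared probe, while the brighter probe gave a difference of -0.47 between the same groups. For Gsk3b the mean was -3.22 at 5 months and -2.53 in primary hepatocytes on the shared probe, while the brighter probe gave 0.70. No direction is drawn for these genes. Wnt9b, well above background on 1 of the primary hepatocyte arrays, was higher by 2.56 (SE 0.50, adjusted p = 0.0198) and, between the time points, lower at 5 months, where neither array was well above background, by at least 4.14-fold (adjusted p = 0.0381). Among 3 Wnt targets the transcription factor Sp5 was called, at -1.23 and -1.39 against -4.39 and -3.50 (2.63, SE 0.59, adjusted p = 0.0299). Beside Wnt9b, sinusoidal endothelium markers had a summed signal of 20.1 and 24.5 at 1 month, 14.9 and 17.5 at 5 months and 13.0 and 12.5 in primary hepatocytes, and their part was not tested.

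Against Lin- BM cells, 4 of the 5 shared markers were called higher at 5 months, where 29.3% of all genes were called higher, and the same number in primary hepatocytes, where the background was also 29.3%. Both comparisons share the Lin- arrays. Sds was at least 766-fold higher at 5 months and at least 1663-fold higher in primary hepatocytes, and Rhbg at least 211-fold and 131-fold. Gls2 was higher by 8.06 (SE 0.88) and 7.96 (SE 0.88) and Hal by 10.20 (SE 0.70) and 10.39 (SE 0.70). Oat was the marker that did not pass in either, at 1.47 (SE 0.61, adjusted p = 0.069) and 1.14 (SE 0.61, adjusted p = 0.139), and its levels of 1.81 and 2.97 in Lin- BM cells overlapped with those of primary hepatocytes. It was called at 5 months with the authors' processed values (1.67, adjusted p = 0.047).

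As a description of likeness, the genes whose log2 level followed that of Sds most closely over the 6 hepatocyte arrays were Cdk16, Pccb and Clk3 (Pearson's r 0.996, 0.993 and 0.990). For Oat they were Rps6kb1, Shd and Rcsd1 (0.993, 0.988 and 0.988). These were picked as the highest of all genes over 6 arrays that share slides and groups, and Glul had no shared probe.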

How the data were processed

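Expression was measured in 8 samples on 1-colour arrays of 2 Agilent designs. The authors deposited, for each array, the output of Agilent Feature Extraction 11.5.1.1 with background-subtracted spot intensity values, and a table of log2 values that the authors had shifted to the 75th percentile in GeneSpring GX. Here control and outlier spots (6 to 152 per array) were left out, 0 spots were saturated, spots of one probe were averaged, and log2 signals were shifted to the 75th percentile of the array, over all probes within a slide and over the 13991 probes of identical sequence across slides. The number of arrays limits the precision. Probes were named by accession, then symbol, through the RefSeq table of GRCm38.p6. A probe was kept where 1 or more of the groups compared had it well above background on each array, and the brightest probe stood for a gene. Groups were taken from the sample titles and compared with limma 3.58.1 in R 4.3.3, with the 4 groups in 1 fit across slides. A fold against a group not well above background is given as a lower bound, the mean of the bright group over the lowest signal well above background. Where a dim array's own signal was higher than that, its own signal was used. Figures were drawn with matplotlib 3.10.9 in Python 3.11.15, with pandas 2.3.3 and numpy 2.4.6. The fits were tested on simulated data. The alternatives were normexp (offset 50), quantile normalization, no filter, the mean of probes, the authors' values, the methods' t-test, shared probes only, the percentile over all probes and each array left out. The wider lists hold other pericentral, periportal, Wnt, glutamine and histidine pathway genes and cell type markers. All members were named, and from a wider pathway list at most the 3 called genes of largest change, plus Cyp2e1, Cyp1a2, Cyp2f2, Lgr5, Rspo3 and Wnt9b. Members and lists were chosen with earlier results of these data known.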

Additional observations from a re-analysis of the deposited data

How the results depend on the processing

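Of the marker values under another background correction, normalization, filter, probe rule, value table or test, 290 kept their direction and side of the threshold, 12 lost the call, 8 gained it and 0 turned. With 1 array left out the numbers were 135, 6, 10 and 9. The values that turned were, between 5 months and primary hepatocytes, Glul (-0.32 without H2, up to 2.76 without H4), Oat (-0.50 to 1.08), Rhbg (-0.36 to 1.64), Lect2 (-0.13 to 1.1) and Hal (0.50, and -0.97 without H4), and Gls2 (-0.18 without H4 and -0.09 without G3, up to 0.30 without H2). Rhbg ran from -0.47 without H2 to 1.56 without H4 between 1 month and primary hepatocytes, and from -0.31 without B1 to 0.59 without B2 between the time points. For 1 month against Lin- BM cells, the 9 markers called became 4 under the methods' t-test with Benjamini-Hochberg, 5 on the shared probes, which hold 5 markers, and 7 to 10 with 1 array left out. The 15777 genes called became 26462 with no filter, 4566 under that t-test, 5761 on the shared probes and 9773 to 12629 with 1 array left out. For 5 months against primary hepatocytes, 0 markers became 0 to 3 with 1 array left out, and the 110 genes became 38 with no filter, 1363 and 0 under the t-test without and with adjustment, and 0 to 1623. For 1 month against primary hepatocytes, 1 marker became 3 with normexp, 0 under the adjusted t-test and 1 to 2 with 1 array left out. The 1533 genes became 2413 with normexp, 3987 with no filter, 2 under the adjusted t-test and 535 to 995. For 5 months against 1 month, 1 marker became 3 with normexp, 2 and 0 under the t-test without and with adjustment, and 0 with any array left out. The 1552 genes became 2687, 14 and 312 to 750 under normexp, the adjusted t-test and 1 array left out. Against Lin- BM cells, the adjusted t-test called 3314 genes at 5 months in place of 6178, and 2 markers and 2487 genes in primary hepatocytes in place of 4 and 6199, while leaving out 1 array gave 4 to 5 markers in both. The cause was not tested. Each group lies on 1 slide, so slide as a block could not be fitted apart from the groups. No paired analysis was possible because no pair of groups compared shares more than 1 replicate number. With 2 arrays per group, a lone array is assumed to vary like the others.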
